A study of Mus musculus with 16 samples.

Results

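The comparison described here is the difference between 2 effects of the same genotype. It is the Dec205 CKO minus Dec205 WT difference less the mean of the Esamlo CKO minus WT and Esamhi CKO minus WT differences, called the interaction below. Its members were the 12 libraries of Dec205, Esamlo and Esamhi cells, of the 16 in the series, with 2 libraries in each of the 6 groups, and the 4 pDC libraries were left out. The cells were dendritic cells from mouse spleen, and the series design text names Etv6 as the deficient gene. The 6 groups were Dec205 CKO and Dec205 WT, Esamlo CKO and Esamlo WT, and Esamhi CKO and Esamhi WT. CKO stands for the Etv6-deficient genotype and WT for its counterpart in the same subset. The labels used here name no driver of the deletion, strain, age or treatment. Dec205 is a surface receptor of classical DC type 1 (cDC1), and Esamlo and Esamhi are the ESAM-low and ESAM-high parts of classical DC type 2 (cDC2), which together are the cDC2 arm below. The question is which genes changed in Etv6-deficient cDC1 by an amount that differed from their change in cDC2.

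cDC1 are the DCs best known for cross-presentation, the display of captured antigen on MHC class I to CD8 T cells, and they depend on the transcription factors Irf8 and Batf3. cDC2 present mainly on MHC class II to CD4 T cells, and their ESAM-high part in the spleen depends on Notch2 signals. Etv6 is an ETS family transcription factor known as a repressor, and in blood it is known for its role in stem cells and in leukaemia fusions. Type I interferon, a further subject below, acts through a surface receptor and a transcription factor complex, which binds a repeated GAAA element in the promoters of antiviral genes.

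Each library held 14434287 to 20709265 counts, and values below are CPM, the counts scaled to a common library size. The labelled subsets carried their markers, since 25 of 25 cDC1 identity genes were higher and 23 of 25 cDC2 identity genes lower in Dec205 WT than in the mean of the Esam WT groups. Replicates lay furthest apart in Dec205, where the biological coefficient of variation was 22% in CKO and 23.1% in WT, against 10.5% to 13.5% in the 4 Esam groups. Whether both libraries of a group stem from different mice is not stated, and the p-values reflect the spread of these libraries alone, some or all of it possibly technical. Xist ranged from 111 to 343 CPM in CKO and from 0 to 1.24 CPM in WT, and the Y-linked Ddx3y was at most 1.9 CPM in CKO and 102 to 215 CPM in WT. Sex and genotype therefore cannot be told apart in any arm, and only autosomal genes are reported here except where stated. In bulk RNA, fewer cells of a type and less RNA per cell cannot be told apart.

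Etv6 itself (chromosome 6 from 134035700 to 134270158, GRCm38) had 200.0 and 214 CPM in Dec205 CKO, against 329 and 362 CPM in Dec205 WT. Esamlo CKO had 355 and 352 CPM, against 415 and 497 CPM in Esamlo WT, and Esamhi CKO had 377 and 422 CPM, against 478 and 439 CPM in Esamhi WT. Both CKO libraries were below both WT libraries in each subset. In Dec205 Etv6 changed by a log2 of -0.74 (SE 0.11, adjusted p = 0.00248), and its log2 difference in the cDC2 arm was -0.28 (SE 0.07, adjusted p = 0.0953), while their difference of -0.46 (SE 0.13, adjusted p = 0.101) did not pass edgeR's quasi-likelihood test. The sources used here do not say which exons were deleted, so a count over the whole gene checks the genotype labels only weakly. Some genes named below lie on the same chromosome, among them Bcl2l14, from 134396329 to 134438724. Klri1, Klrk1, Clec2i, Cd4, Clec4e, Slc2a3 and Gdf3 start between 122605403 and 129696118 there. Whether closeness to the targeted gene plays a part in their differences was not tested.

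Most of the genes with a cell-type difference in the CKO effect moved in Dec205 and little in cDC2. Of 12844 tested autosomal genes, 363 (2.83%) passed edgeR's quasi-likelihood test of the interaction at a Benjamini-Hochberg adjusted p under 0.05, and such genes are called below. In 138 of them (1.07%) the Dec205 difference lay above the cDC2 difference, and in 225 (1.75%) it lay below. The Dec205 difference was the larger in size for 323 of the called genes (89%), made up of 132 higher and 191 lower ones, and the cDC2 difference was the larger for the other 40, made up of 6 higher and 34 lower ones. The CKO effect had opposite signs in the 2 arms for 229 of the called genes and the same sign for 134. By size, 237 of the 363 had an interaction of at least 2-fold.

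The arms themselves gave unequal numbers of calls, in an order that turned with the model of the spread. CKO differed from WT in 943 autosomal genes in Dec205 (7.34%), of which 444 were higher (3.46%) and 499 lower (3.89%), and in 271 in the cDC2 arm (2.11%), of which 198 were higher (1.54%) and 73 lower (0.568%). With limma-voom and 1 weight per group the order was reversed, with 248 calls in Dec205 and 926 in the cDC2 arm. Of the Dec205 calls 314 were also called in the interaction, a share of 33.3%, and of the cDC2 calls 61 were, a share of 22.5%. The interaction and its arms share libraries, so these shares are a description. A gene called in 1 arm and not in the other was not thereby shown to differ, and most such genes did not pass the test of the difference. The spread of estimates was wider in Dec205, with a median standard error of 0.24 on the log2 scale, against 0.18 in the cDC2 arm, and the interaction had a median standard error of 0.31. Genes called in both arms numbered 115, of which 100 moved the same way, such as Col17a1, a hemidesmosome collagen with log2 fold changes of 5.02 in Dec205 and 6.40 in cDC2 and an interaction that did not pass the test (adjusted p = 0.128).

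**Figure D1:**
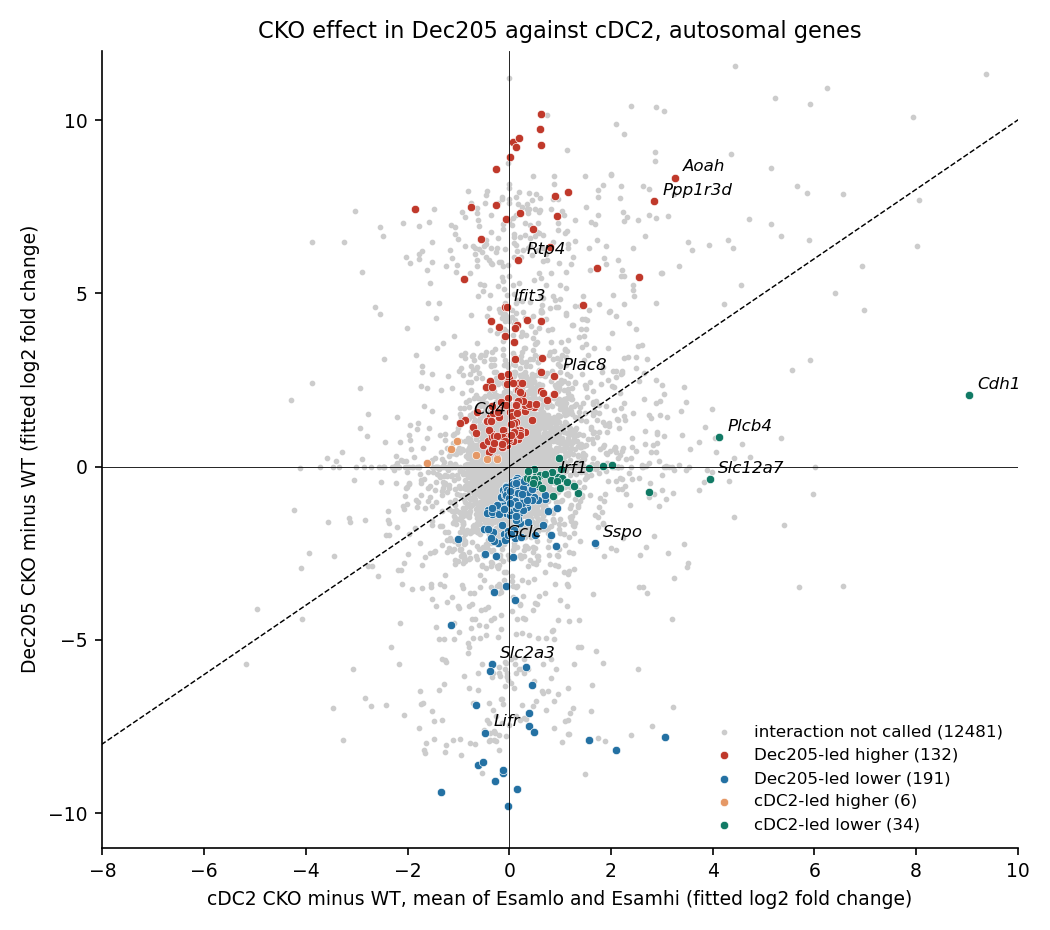
Fitted log2 fold change of CKO against WT in Dec205 (vertical axis) and in the cDC2 arm (horizontal axis) for the 12844 tested autosomal genes, with the genes called in the interaction in colour by which arm moved more. Called points lie mostly in a tall, narrow band near a cDC2 change of 0, and the green points to the right, such as Cdh1, Plcb4 and Slc12a7, are the cDC2-led ones. Values beyond about 5 in size belong mostly to genes with few or no counts in 1 group, where the fitted value depends on a small prior count.

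The type I interferon response genes formed the group with the most calls, all of them higher in the Dec205 contrast. Of 41 tested members, 15 had a Dec205 difference above the cDC2 difference and 0 below (36.6% against 1.07% of all tested autosomal genes called higher), and 33 of the 41 had a positive interaction. The median log2 fold change of the list was 0.66 in Dec205 and 0.02 in cDC2, and its median interaction was 0.57, against 0.0041 over all autosomal genes. In the cDC2 arm 4 members were called higher, where 1.54% of all genes were, and 0 lower. In Dec205, 19 were called higher, where 3.46% of all genes were, and 1 lower. The summed level of the list was higher in Esamlo CKO without overlap, at 3603 and 3311 CPM, against 2704 and 2899 CPM in Esamlo WT. In Esamhi the sums overlapped. These genes encode antiviral effectors and sensors, and the called ones included the Ifit and Oas families, which bind viral RNA or make the activator of RNase L.

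Rtp4, an interferon-induced transporter of receptors, had 24.8 and 19.4 CPM in Dec205 CKO, against 0.74 and 0 CPM in Dec205 WT. It had 70.5 and 70.1 CPM in Esamlo CKO, against 41.8 and 63.5 CPM in Esamlo WT, and 79.3 and 57.4 CPM in Esamhi CKO, against 61.7 and 81.4 CPM in Esamhi WT. Both Dec205 WT libraries were below the 10 others. CKO was above WT in Esamlo and overlapped with it in Esamhi, and the interaction was 5.78 (SE 0.64, adjusted p = 0.00101). Ifit3, an antiviral RNA-binding partner protein, had 36.4 and 39.6 CPM in Dec205 CKO, against 0 and 3.01 CPM in Dec205 WT. In Esamlo CKO it had 34.6 and 31.1 CPM, against 21.2 and 38.7 CPM in Esamlo WT, and in Esamhi CKO 35.5 and 41.2 CPM, against 40.4 and 53.8 CPM in Esamhi WT. The groups were apart in Dec205 and overlapped in both Esam subsets, with an interaction of 4.68 (SE 0.81, adjusted p = 0.0129). The calls of Rtp4 and Ifit3 were lost with limma-voom and 1 weight per group (adjusted p of 0.2562 and 0.151).

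Ifit1bl1, a member of the same gene cluster, had 56.7 and 58.7 CPM in Dec205 CKO, against 4 and 2.35 CPM in Dec205 WT. Its Esam libraries ran from 9.8 to 13.6 CPM in CKO and from 10.8 to 26.1 CPM in WT, so the Dec205 CKO libraries were the highest of all 12. The interaction was 4.54 (SE 0.47, adjusted p = 0.000857). Ifit3b, a near-identical copy of Ifit3, had 18 and 21.8 CPM in Dec205 CKO, against 0 and 2.35 CPM in Dec205 WT, and an interaction of 4.23 (SE 0.87, adjusted p = 0.0277). The Ifit3b call was kept in 5 of 12 fits that each left out 1 library and was lost with no filter on low counts, with group weights and with Esamlo alone as the cDC2 arm (adjusted p = 0.0821). Reads of Ifit3 and Ifit3b, and of the Oas1 genes, may be shared between copies in a way that is not described. The Dec205 WT replicates were unequal for both Ifit3 and Ifit3b, with 0 in replicate 1.

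Not every member passed the test of the difference. Irf7, which amplifies interferon production, had log2 fold changes of 0.58 in Dec205 and 0.02 in cDC2 and an interaction of 0.56 (SE 0.20, adjusted p = 0.172), not past the threshold.

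Promoter sequence, which the comparison did not use, was read for these genes from RefSeq (GRCm38.p6) as the 250 bases before each annotated start. The motif GAAANNGAAA, the core of the interferon-stimulated response element, was searched on both strands, with overlapping matches allowed. It was found in 3.5% of the 10173 tested autosomal genes with a window, in 16 of 103 Dec205-led higher genes (15.5%), in 5 of 146 Dec205-led lower genes (3.42%) and in 2 of 29 cDC2-led lower genes (6.9%). Among called interferon genes 7 of the 12 with a window held it (58.3%), and among uncalled ones 7 of 19 did (36.8%). The called ones with a match include the copies Ifit3 and Ifit3b, and Oas1a and Oas1g. Windows of such copies are alike, so these are not 7 separate promoters. The Dec205-led higher genes with a match include interferon genes such as Ifit3, so the counts overlap. The ETS motif CCGGAAGT was in 4.85% of the Dec205-led higher genes with a window and 4.79% of the lower ones, against 6.73% of all. A match is a description of the letters and not a binding site. Rtp4, Oas2 and Ifi27l2a are not in the promoter table.

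Windows of 4 called genes with a match are printed to show where the repeat lies, 5′ to 3′ on the gene's strand, with matches in capitals and positions counted back from the annotated start. Ifit3 (chr19:34583279-34583528, plus strand) holds 2 matches, which begin at -156 and -122. Ifit1bl1 (chr19:34601969-34602218, minus strand) holds 1 at -104. Oas1a (chr5:120907526-120907775, minus strand), an oligoadenylate synthetase gene with an interaction of 3.89 (adjusted p = 0.000871), holds 2 that overlap, at -20 and -14. Slfn5 (chr11:82951852-82952101, plus strand), a Schlafen gene with an interaction of 0.90 (adjusted p = 0.00997), holds 1 at -155. In Ifit3 and Ifit1bl1 the match reads as TTTCNNTTTC because it lies on the opposite strand.
Ifit3: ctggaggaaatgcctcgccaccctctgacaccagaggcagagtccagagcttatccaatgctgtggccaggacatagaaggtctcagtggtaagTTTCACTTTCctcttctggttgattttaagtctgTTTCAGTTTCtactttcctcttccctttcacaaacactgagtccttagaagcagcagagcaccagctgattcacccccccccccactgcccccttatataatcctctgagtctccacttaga
Ifit1bl1: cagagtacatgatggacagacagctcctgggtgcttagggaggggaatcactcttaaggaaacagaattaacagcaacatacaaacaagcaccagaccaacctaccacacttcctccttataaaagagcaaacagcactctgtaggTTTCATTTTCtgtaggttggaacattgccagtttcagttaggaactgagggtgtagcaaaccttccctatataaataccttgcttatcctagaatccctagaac
Oas1a: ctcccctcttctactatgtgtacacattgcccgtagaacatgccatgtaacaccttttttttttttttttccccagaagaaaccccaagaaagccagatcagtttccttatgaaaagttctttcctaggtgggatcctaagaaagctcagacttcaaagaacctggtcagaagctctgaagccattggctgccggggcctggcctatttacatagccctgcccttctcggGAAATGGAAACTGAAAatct
Slfn5: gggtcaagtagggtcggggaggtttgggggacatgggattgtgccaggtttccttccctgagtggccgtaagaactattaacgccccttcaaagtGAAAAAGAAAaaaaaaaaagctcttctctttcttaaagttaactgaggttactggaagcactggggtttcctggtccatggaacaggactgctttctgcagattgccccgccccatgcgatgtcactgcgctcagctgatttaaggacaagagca

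PYHIN genes, a cluster of interferon-inducible DNA sensors and their regulators, went the same way, with 5 of 10 called higher, against 1.07% of all genes, and 0 called lower. Aim2, the inflammasome sensor of cytosolic DNA, had 75.1 and 68.5 CPM in Dec205 CKO, against 44.2 and 33 CPM in Dec205 WT. It had 79.1 and 78.8 CPM in Esamlo CKO, against 77.4 and 75.2 CPM in Esamlo WT, and 80.7 and 89.9 CPM in Esamhi CKO, against 87.4 and 98 CPM in Esamhi WT. CKO was above WT without overlap in Dec205 and in Esamlo, where the gap was small, and the groups overlapped in Esamhi. The interaction of Aim2 was 0.93 (SE 0.18, adjusted p = 0.0198), kept in 8 of the 12 fits without 1 library and lost with Esamlo alone (adjusted p = 0.08). Pydc3, which encodes a pyrin-only protein, rose in both arms, with log2 fold changes of 5.72 (SE 0.39, adjusted p = 3.38e-05) in Dec205 and 1.72 (SE 0.21, adjusted p = 0.00129) in cDC2, and an interaction of 4.01 (SE 0.43, adjusted p = 0.00096). Pydc4 and Ifi203 had interactions of 3.57 (SE 0.44, adjusted p = 0.00202) and 1.30 (SE 0.15, adjusted p = 0.0015). The fifth called member was Pyhin1. Pydc3 and Pydc4 are close copies and may share reads.

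These counts changed with the model of the spread and with the choice of cDC2 arm. With limma-voom and 1 weight per group, 0.493 for Dec205 CKO and 0.553 for Dec205 WT, 6 interferon genes and 0 PYHIN genes were called higher. With Esamlo alone as the cDC2 arm the interferon list held 9 calls and the PYHIN list 3, and the PYHIN list held 3 without Esamlo CKO replicate 2 or Esamhi CKO replicate 1.

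Genes of DC maturation and costimulation went the other way. Of 26 tested members, 8 had a Dec205 difference below the cDC2 difference and 0 above (30.8% against 1.75% of all tested autosomal genes called lower), and 23 of the 26 had a negative interaction. The median log2 fold change of the list was -0.36 in Dec205 and 0.13 in cDC2, with a median interaction of -0.53. These genes mark the passage of a DC to its migratory, T cell stimulating state.

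Relb, the NF-kB subunit needed for DC maturation, had 199 and 214 CPM in Dec205 CKO, against 384 and 357 CPM in Dec205 WT. Esamlo CKO had 379 and 404 CPM, against 414 and 363 CPM in Esamlo WT, and Esamhi CKO had 683 and 676 CPM, against 584 and 574 CPM in Esamhi WT. Both Dec205 CKO libraries were the lowest of the 12, and in Esamhi the CKO libraries were the higher ones. The interaction was -0.96 (SE 0.11, adjusted p = 0.00112). Ccr7, the chemokine receptor that guides mature DCs to T cell zones, had 1926 and 1974 CPM in Dec205 CKO, against 3595 and 3606 CPM in Dec205 WT. Its Esamlo values were 832 and 1167 CPM in CKO, against 1023 and 996 CPM in WT, and its Esamhi values 2280.0 and 2788 CPM in CKO, against 2098 and 2556 CPM in WT. The groups overlapped in both Esam subsets, the log2 fold change in Dec205 was -0.88 (SE 0.15, adjusted p = 0.00691) and the interaction -0.94 (SE 0.19, adjusted p = 0.0236), a call kept in 8 of the 12 fits without 1 library.

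Cd274, which encodes the inhibitory ligand PD-L1, had 133 and 129 CPM in Dec205 CKO, against 184 and 154 CPM in Dec205 WT. It had 427 and 425 CPM in Esamlo CKO, against 318 and 313 CPM in Esamlo WT, and 655 and 772 CPM in Esamhi CKO, against 478 and 513 CPM in Esamhi WT. It was lower in Dec205 CKO and higher in both Esam CKO groups, without overlap in any subset. The rise in cDC2 of 0.48 (SE 0.07, adjusted p = 0.0072) passed the test, the Dec205 difference of -0.36 (SE 0.11, adjusted p = 0.0704) did not, and the interaction was -0.84 (SE 0.13, adjusted p = 0.00684). Icam1, the adhesion ligand of beta2 integrins, also passed in cDC2 (0.49, SE 0.07, adjusted p = 0.00515) and not in Dec205 (-0.06, SE 0.10, adjusted p = 0.762), with an interaction of -0.55 (SE 0.12, adjusted p = 0.043). That call was kept in 1 of the 12 fits without 1 library, and lost with group weights and against Esamlo alone (adjusted p = 0.0735) or Esamhi alone (adjusted p = 0.135). Birc2, an inhibitor of apoptosis in NF-kB signalling, fell in Dec205 (-0.71, SE 0.14, adjusted p = 0.0142) and had an interaction of -0.80 (SE 0.17, adjusted p = 0.0393), kept in 3 of the 12. The other called members were Tmem123, Traf1 and Birc3.

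Calls among the 26 numbered 4 with group weights, 4 with Esamlo alone as the cDC2 arm, and 0 when a fold of 1.5 had to be exceeded. They numbered 4 without Esamlo WT replicate 2 or Esamhi WT replicate 1, and 5 without Esamlo CKO replicate 2, Esamhi CKO replicate 2 or Esamhi WT replicate 2. The lists of NF-kB subunits and feedback regulators overlap with this one. Of 22 NF-kB genes, 3 were called lower (Relb, Traf1 and Nfkbib), where 1.75% of all genes were, and 0 higher, and 19 of the 22 had a negative interaction. The Nfkbib call was kept in 1 of the 12 fits without 1 library and lost with group weights and against either Esam subset alone.

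**Figure D2:**
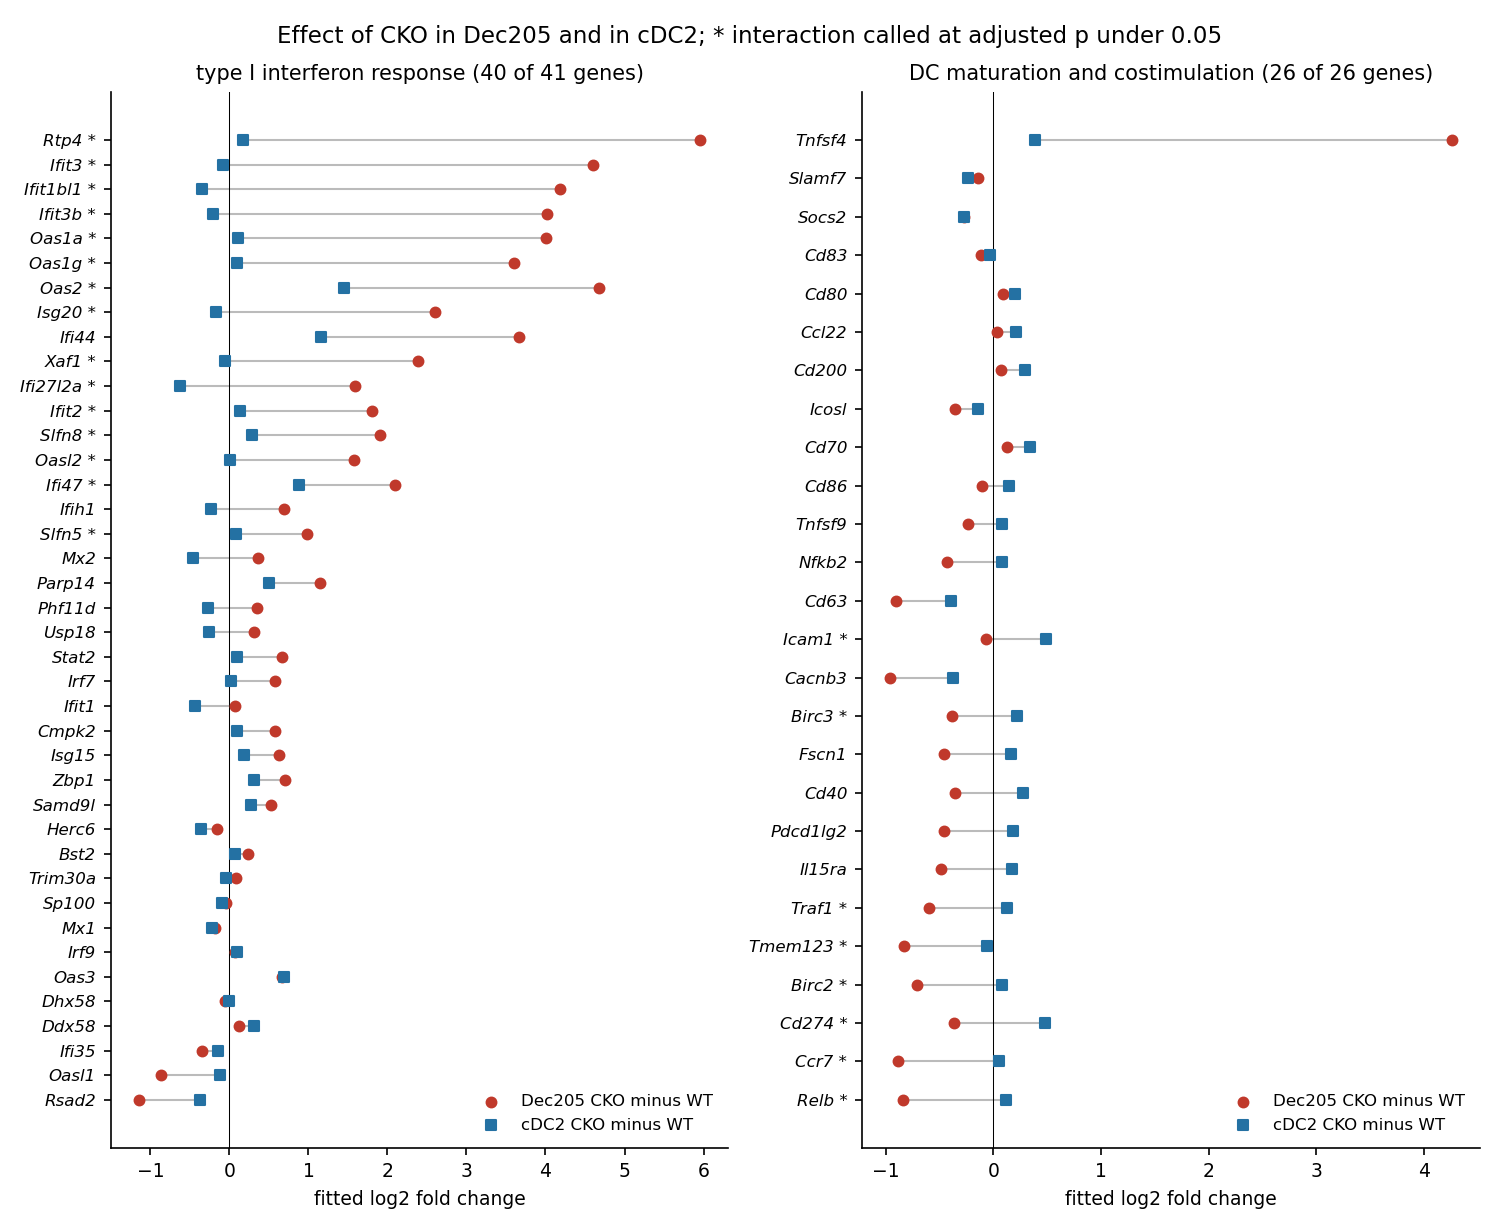
Fitted log2 fold change of CKO against WT for tested genes of the type I interferon list (left, 40 of its 41 genes) and of the maturation list (right, 26 genes), in Dec205 (red circles) and in the cDC2 arm (blue squares), ordered by their difference, with called genes starred. The starred interferon genes have red points to the right of their blue points, most of which lie near 0, and the starred maturation genes have red points to the left. Tnfsf4, at the top right, has few counts in Dec205 and was not called.

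Genes that moved in opposite directions in the 2 arms, each past the test, numbered 15, and all 15 were called in the interaction. Irf1, a transcription factor of interferon responses and MHC class I genes, had 396 and 390.1 CPM in Dec205 CKO, against 489.8 and 529.9 CPM in Dec205 WT. Esamlo CKO had 421 and 407 CPM, against 249.9 and 232 CPM in Esamlo WT, and Esamhi CKO had 364 and 329 CPM, against 182 and 197 CPM in Esamhi WT. Irf1 fell in Dec205 (-0.38, SE 0.09, adjusted p = 0.0272) and rose in cDC2 (0.83, SE 0.06, adjusted p = 4.21e-05), and the interaction was -1.20 (SE 0.11, adjusted p = 0.000399). Nlrc5, the transactivator of MHC class I genes, also fell in Dec205 (-0.56, SE 0.12, adjusted p = 0.0227) and rose in cDC2 (0.43, SE 0.09, adjusted p = 0.0342), with an interaction of -0.99 (SE 0.15, adjusted p = 0.00682).

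Mxd1, a partner of Max that opposes Myc, had 269 and 292 CPM in Dec205 CKO, against 517 and 497 CPM in Dec205 WT. It had 336 and 351 CPM in Esamlo CKO, against 172 and 202 CPM in Esamlo WT, and 504 and 655 CPM in Esamhi CKO, against 309 and 332 CPM in Esamhi WT. No pair of groups overlapped within a subset, and the interaction was -1.72 (SE 0.15, adjusted p = 0.000418). Clec2i, a C-type lectin, had 24.5 and 23.4 CPM in Dec205 CKO, against 56.8 and 53.3 CPM in Dec205 WT. Its Esamlo values were 35.3 and 31.2 CPM in CKO, against 13.7 and 16.1 CPM in WT, and its Esamhi values 42.4 and 41.7 CPM in CKO, against 23.7 and 27.9 CPM in WT. Clec2i was lower in Dec205 CKO and higher in both Esam CKO groups, with an interaction of -2.13 (SE 0.19, adjusted p = 0.000399).

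Cd4, the coreceptor that marks splenic cDC2, went the reverse way. Dec205 CKO had 24 and 23.8 CPM, against 6.36 and 12.3 CPM in Dec205 WT. Esamlo CKO had 63.7 and 72.7 CPM, against 122 and 97.3 CPM in Esamlo WT, and Esamhi CKO had 121 and 139 CPM, against 284 and 259.5 CPM in Esamhi WT. The log2 difference was 1.34 (SE 0.24, adjusted p = 0.00851) in Dec205 and -0.87 (SE 0.15, adjusted p = 0.0138) in cDC2, and the interaction was 2.22 (SE 0.29, adjusted p = 0.00251). Dec205 CKO stayed below every Esam library. Of the 25 cDC2 identity genes, Cd4 was the 1 called higher and Tmem176b, a membrane protein, the 1 called lower (-0.53, SE 0.12, adjusted p = 0.0448), beside 1.07% and 1.75% of all genes. The Tmem176b call was kept in 2 of the 12 fits without 1 library and lost with group weights and against Esamlo alone (adjusted p = 0.767). Klri1, a killer cell lectin-like receptor, had 67.6 and 93.2 CPM in Dec205 CKO, against 41.9 and 40.1 CPM in Dec205 WT, and 6.68 and 5.15 CPM in Esamhi CKO, against 16.6 and 15.7 CPM in Esamhi WT. Its Esamlo values of 20.1 and 21 CPM in CKO and 19.2 and 18.1 CPM in WT were close together and slightly higher in CKO, and the interaction was 1.63 (SE 0.23, adjusted p = 0.00359), lost against Esamlo alone (adjusted p = 0.176).

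Sspo, the gene of SCO-spondin, had 2.65 and 3.73 CPM in Dec205 CKO, against 16.3 and 13 CPM in Dec205 WT. It had 13.3 and 12.2 CPM in Esamlo CKO, against 5.09 and 3.16 CPM in Esamlo WT, and 54.3 and 49.1 CPM in Esamhi CKO, against 16.1 and 14.8 CPM in Esamhi WT. It was lower in CKO in Dec205 and higher in CKO in both Esam subsets, with an interaction of -3.89 (SE 0.33, adjusted p = 0.000399). Gucd1 followed the same order, with 61 and 59.4 CPM in Dec205 CKO, against 127 and 107 CPM in Dec205 WT, and an interaction of -1.40 (SE 0.14, adjusted p = 0.000662). Rxra, the retinoid X receptor and partner of many nuclear receptors, fell in Dec205 (-0.77, SE 0.20, adjusted p = 0.0442), rose in cDC2 (1.35, SE 0.15, adjusted p = 0.000603) and had an interaction of -2.11 (SE 0.25, adjusted p = 0.0015). Ctsc, a lysosomal protease that activates granzymes, rose in Dec205 (0.59, SE 0.08, adjusted p = 0.0015) and fell in cDC2 (-0.33, SE 0.06, adjusted p = 0.0121), with an interaction of 0.92 (SE 0.10, adjusted p = 0.000871).

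**Figure D3:**
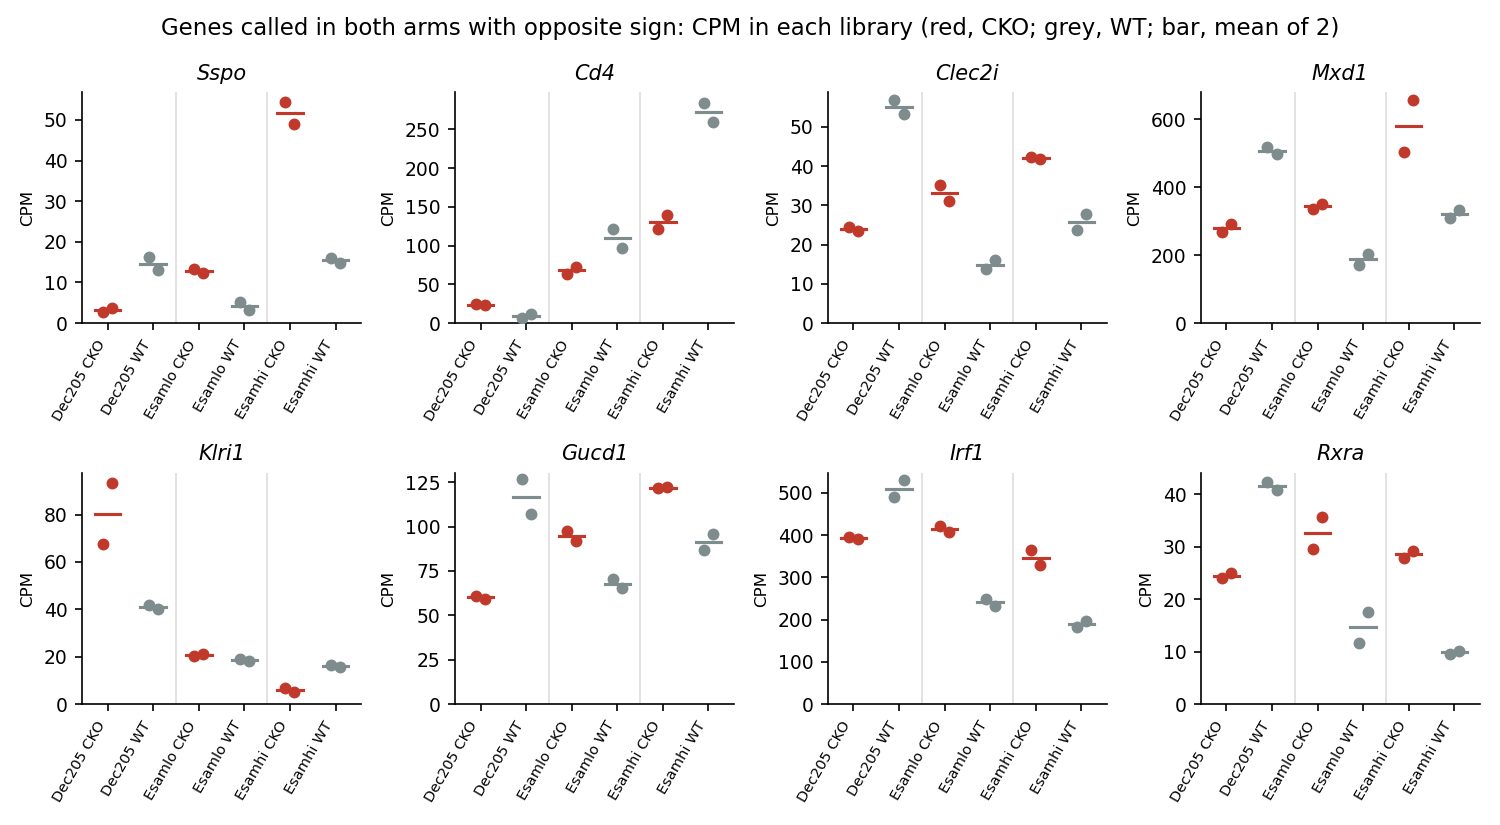
CPM in each of the 12 libraries (points; red for CKO, grey for WT; bars are means of 2) for 8 of the 15 genes called in both arms with opposite sign, on a linear axis from 0. In Cd4 and Klri1 the Dec205 CKO points lie above the Dec205 WT points, and in the other 6 they lie below, with the reverse order in Esamhi.

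The 34 genes with a larger change in cDC2 and a negative interaction were led by Cdh1, which encodes the adhesion protein E-cadherin. It had 2.1 and 2.02 CPM in Dec205 CKO, against 1.04 and 0 CPM in Dec205 WT. Esamlo CKO had 443 and 315 CPM, against 2.55 and 2.64 CPM in Esamlo WT, and Esamhi CKO had 509 and 496 CPM, against 0 and 0.505 CPM in Esamhi WT. The 4 Esam CKO libraries ran from 315 to 509 CPM, and no other library exceeded 2.64 CPM. The rise in cDC2 was 9.05 (SE 0.37, adjusted p = 5.60e-07), and the Dec205 difference of 2.06 (SE 0.79, adjusted p = 0.144) did not pass. The interaction was -6.98 (SE 1.38, adjusted p = 0.023). Its call was lost without Dec205 WT replicate 1, which leaves a Dec205 WT library at 0. The Cdh1 call was also lost with no filter on low counts and when a fold of 1.5 had to be exceeded. It was lost as well with group weights (limma-voom adjusted p = 0.393) and against Esamlo alone (adjusted p = 0.0857).

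Slc12a7, a potassium chloride cotransporter, had 27 and 46 CPM in Dec205 CKO, against 48.8 and 44.2 CPM in Dec205 WT. It had 88 and 77.3 CPM in Esamlo CKO, against 8.58 and 11 CPM in Esamlo WT, and 152 and 145 CPM in Esamhi CKO, against 7.04 and 3.64 CPM in Esamhi WT. The groups overlapped in Dec205 and were far apart in both Esam subsets, with an interaction of -4.29 (SE 0.36, adjusted p = 0.000399). Plcb4, a phospholipase C, rose in both arms. It had 43.5 and 40.2 CPM in Dec205 CKO, against 23.5 and 22.7 CPM in Dec205 WT. Esamlo CKO had 80.7 and 76.6 CPM, against 3.98 and 4.38 CPM in Esamlo WT, and Esamhi CKO had 47.9 and 63.9 CPM, against 3.36 and 3.49 CPM in Esamhi WT. Its log2 fold changes of 0.86 in Dec205 and 4.13 in cDC2 differed by -3.27 (SE 0.21, adjusted p = 6.62e-05). Flt1, a receptor for vascular endothelial growth factor, rose in cDC2 (2.76, SE 0.51, adjusted p = 0.0187), where it stayed below 10 CPM, and had an interaction of -3.50 (SE 0.76, adjusted p = 0.0371), a call kept in 4 of 12 fits that each left out 1 library.

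The 6 genes with the opposite arrangement, a fall in cDC2 and a higher Dec205 difference, included chemokine genes. Ccl4, an inflammatory chemokine, had 558 and 717 CPM in Dec205 CKO, against 505 and 393 CPM in Dec205 WT. Esamlo CKO had 144 and 178 CPM, against 259 and 298 CPM in Esamlo WT, and Esamhi CKO had 235 and 250.5 CPM, against 607 and 761 CPM in Esamhi WT. The groups did not overlap in any subset, the log2 fold change in cDC2 was -1.14 (SE 0.12, adjusted p = 0.000592), the Dec205 difference of 0.51 (SE 0.17, adjusted p = 0.105) did not pass, and the interaction was 1.65 (SE 0.21, adjusted p = 0.00233). Ccl3, its neighbour on the chromosome, had 83 and 115 CPM in Dec205 CKO, against 69.6 and 50.5 CPM in Dec205 WT, and an interaction of 1.74 (SE 0.26, adjusted p = 0.00523). The kit does not mark strand, and the reads of such close neighbours and copies may not be fully separate. Of 34 genes of chemokines, cytokines and their receptors, 3 were called higher (Ccr1, Ccl3 and Ccl4) and 3 lower (Cxcl10, Ccr7 and Cxcl16), beside 1.07% and 1.75% of all genes. The Cxcl10 call was kept in 2 of the 12 fits without 1 library and lost with group weights and against Esamlo alone (adjusted p = 0.274).

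The remaining cDC2-led higher genes named by size were Sept3, Rgs18 and Stmn1. Rgs18, a brake on G protein signalling, had 60.5 and 58.5 CPM in Dec205 CKO, against 46.5 and 47.9 CPM in Dec205 WT. It had 63.2 and 67.7 CPM in Esamlo CKO, against 102 and 104 CPM in Esamlo WT, and 67.2 and 67.5 CPM in Esamhi CKO, against 99.5 and 110.2 CPM in Esamhi WT. Both Esam CKO groups were below their WT groups and Dec205 CKO was above Dec205 WT, with an interaction of 0.98 (SE 0.13, adjusted p = 0.00251). Sept3, a septin, and Stmn1, the microtubule regulator stathmin, had interactions of 1.73 (SE 0.33, adjusted p = 0.02) and 0.67 (SE 0.15, adjusted p = 0.038), and their calls were kept in 8 and 2 of the 12 fits that each left out 1 library.

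Among the 132 Dec205-led higher genes, 31 averaged under 1 CPM in Dec205 WT, and 16 of these had 0 counts there. The median over these genes was 36.0 CPM in Dec205 CKO, against 8.92 CPM in Dec205 WT, and 35.9 CPM in cDC2 CKO, against 36.7 CPM in cDC2 WT. They were chosen for their Dec205 difference, so these medians are a description. Aoah, the enzyme that inactivates bacterial lipopolysaccharide, had 219 and 257 CPM in Dec205 CKO, against 0.592 and 0.85 CPM in Dec205 WT. Esamlo CKO had 5.37 and 8.13 CPM, against 0.387 and 1.23 CPM in Esamlo WT, and Esamhi CKO had 2.16 and 2.9 CPM, against 0.414 and 0.0505 CPM in Esamhi WT. Aoah rose in both arms and was above 10 CPM in the Dec205 CKO libraries alone, with an interaction of 5.08 (SE 0.77, adjusted p = 0.00632). It lost its call without Esamhi WT replicate 1 and with group weights (limma-voom adjusted p = 0.08353).

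S1pr3, Ccr1 and Thbd were among the genes with 0 counts in Dec205 WT. S1pr3, a sphingosine 1-phosphate receptor, had 10.5 and 6.06 CPM in Dec205 CKO, against 0 and 0 CPM in Dec205 WT, which is at least 79.5-fold higher when WT is set to a floor of 3 counts over its 2 libraries. Ccr1, a chemokine receptor, had 7.69 and 1.64 CPM in Dec205 CKO, against 0 and 0 CPM in Dec205 WT, at least 44.8-fold higher. Thbd, thrombomodulin, had 3.7 and 4.8 CPM in Dec205 CKO, against 0 and 0 CPM in Dec205 WT, at least 40.8-fold higher. All 3 were present in Esam cells of both genotypes, where Thbd ran from 4.26 to 19.3 CPM in CKO and from 2.12 to 22.1 CPM in WT. Their interactions passed the test, with adjusted p of 0.0137 for S1pr3, 0.0137 for Ccr1 and 0.00164 for Thbd, and the S1pr3 call was lost with Esamlo alone as the cDC2 arm (adjusted p = 0.0511). All 3 calls were lost with group weights (limma-voom adjusted p of 0.5384, 0.2785 and 0.2197, in that order).

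The other genes named by size that had 0 counts in Dec205 WT were Hoxc4, a homeobox gene, Nxpe5, Cd209b, a C-type lectin, and Clec4e, the lectin Mincle. They were at least 11.7-fold, 34.0-fold, 7.70-fold and 10.1-fold higher in Dec205 CKO, in that order. Their Dec205 CKO means were low, at 1.22, 3.54, 0.802 and 1.05 CPM, and each reached a mean of 10 CPM in Esam groups only. None of these calls was kept in limma-voom with group weights. The calls of Nxpe5, Cd209b and Clec4e were kept in 3, 2 and 11 of the 12 fits that each left out 1 library, and Nxpe5 had unequal Dec205 CKO replicates of 1.15 and 5.94 CPM. Card6, a caspase recruitment domain gene, had 12.8 and 8.84 CPM in Dec205 CKO, against 0 and 0.131 CPM in Dec205 WT. On total counts of 396 in CKO and 2 in WT this was 159-fold, with an exact 95% interval of 43.8 to 1318 for counting error only, and the interaction passed with an adjusted p of 0.000752. The Card6 call was lost with group weights (limma-voom adjusted p = 0.2785).

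Monocyte-like genes held 4 calls of 16, all higher, against 1.07% of all genes. Plac8, a small cysteine-rich protein of myeloid and plasmacytoid cells, had 1797 and 2062 CPM in Dec205 CKO, against 300.0 and 328 CPM in Dec205 WT. It had 612 and 685 CPM in Esamlo CKO, against 353 and 407 CPM in Esamlo WT, and 555 and 499.8 CPM in Esamhi CKO, against 234 and 292 CPM in Esamhi WT. Plac8 was higher in CKO in all 3 subsets, the Dec205 CKO libraries were the highest, and the arms differed by 1.73 (SE 0.16, adjusted p = 0.000423). Ms4a4c, Ms4a6c and Ms4a6b, membrane proteins of myeloid cells from 1 cluster on chromosome 19, had interactions of 1.99 (SE 0.31, adjusted p = 0.0076), 1.84 (SE 0.16, adjusted p = 0.000399) and 1.63 (SE 0.22, adjusted p = 0.00276). Ms4a6c had 91.9 and 104 CPM in Dec205 CKO, against 27 and 30.3 CPM in Dec205 WT, and 205 to 325 CPM in the Esam CKO libraries, against 189.5 to 394 CPM in the Esam WT libraries. Ly6c2 and Ccr2, markers of classical monocytes, were not called in the interaction, and Chil3 was at 0 in both Dec205 groups.

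Transcription factor genes moved in both directions, with 2 of 31 called higher and 3 lower, beside 1.07% and 1.75% of all genes. Runx2, a Runt factor used by plasmacytoid DCs, had 108 and 155 CPM in Dec205 CKO, against 10.7 and 18.8 CPM in Dec205 WT. Esamlo CKO had 65.9 and 79.2 CPM, against 48.7 and 41.1 CPM in Esamlo WT, and Esamhi CKO had 58.1 and 64.7 CPM, against 38.9 and 42.5 CPM in Esamhi WT. Runx2 was higher in CKO in all 3 subsets without overlap, and the interaction was 2.50 (SE 0.30, adjusted p = 0.00175). Tcf4, the E protein that defines plasmacytoid DCs, had 86 and 60.4 CPM in Dec205 CKO, against 41.4 and 29.1 CPM in Dec205 WT, and an interaction of 1.16 (SE 0.24, adjusted p = 0.029), kept in 3 of the 12 fits that each left out 1 library. The lower ones were Irf1, Relb and Bhlhe40. Of the 25 pDC identity genes, Runx2 and Tcf4 were called higher and Lifr lower, beside 1.07% and 1.75% of all genes. In the ETS family, Etv5 was called higher (2.06, SE 0.39, adjusted p = 0.0199) and Etv3 lower (-0.66, SE 0.14, adjusted p = 0.0295) of 16 tested, beside the same shares of all genes. Their calls were kept in 8 and 3 of the 12 fits without 1 library.

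Markers of other cells did not all move the same way in Dec205. Summed levels of B cell, plasma cell, NK cell, monocyte-like, and erythroid and platelet markers were higher in Dec205 CKO than in Dec205 WT, without overlap. Klrk1 alone made up most of the NK cell sum. In Dec205 CKO it had 151.2 and 151.3 of 163.9 and 157.4 CPM. In Dec205 WT it had 71.7 and 82.5 of 76.8 and 92.8 CPM. The summed level of macrophage markers was lower, with 157.3 and 180 CPM in Dec205 CKO, against 237.3 and 265.8 CPM in Dec205 WT. Their mean log2 CPM overlapped, at 2.70 and 2.31 in Dec205 CKO and 1.77 and 2.49 in Dec205 WT. Their median log2 fold change in Dec205 was 0.015. T cell and neutrophil marker sums overlapped. The summed level of 15 B cell markers was 1142 and 579.7 CPM in Dec205 CKO, against 294.9 and 310.7 CPM in Dec205 WT. It was 1511 and 647.3 CPM in Esamlo CKO, against 434.6 and 605.8 CPM in Esamlo WT, and 571.6 and 441.1 CPM in Esamhi CKO, against 533.5 and 530.4 CPM in Esamhi WT. Replicate 1 of Dec205 CKO and of Esamlo CKO were the highest. Of the 15, 4 rose in the Dec205 arm, where 3.46% of all genes did, 0 were called in the interaction by edgeR (4 had an unadjusted p under 0.05 and DESeq2 called 1), and Pax5, the defining B cell factor, averaged 0.251 CPM in Dec205 CKO and 0.0654 CPM in Dec205 WT. The 16 monocyte-like genes summed to 2947 and 3698 CPM in Dec205 CKO, against 1364 and 1248 CPM in Dec205 WT. Their sums were 4436 and 5119 CPM in Esamlo CKO, against 5008 and 4580 CPM in Esamlo WT, and 2186 and 1974 CPM in Esamhi CKO, against 1254 and 1477 CPM in Esamhi WT. Plac8 held most of the Dec205 gap, since the other 15 summed to 1150 and 1636 CPM in Dec205 CKO, against 1064 and 920.3 CPM in Dec205 WT. The part of such cells in the differences above was not tested. Among T cell markers Cd5 was called higher (1 of 15), and among NK cell markers Klrk1 (1 of 10), beside 1.07% of all genes. Their calls were kept in 8 and 2 of the 12 fits without 1 library. edgeR's test called 0 of 7 plasma cell, 14 macrophage and 11 neutrophil markers, of which 3, 4 and 5 had an unadjusted p under 0.05 and DESeq2 called 0, 3 and 1.

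The 191 Dec205-led lower genes included the surface molecule that names the cDC2 subsets. Esam, an adhesion molecule, had 7.29 and 7.2 CPM in Dec205 CKO, against 32.3 and 31.4 CPM in Dec205 WT. It had 7.67 and 10.7 CPM in Esamlo CKO, against 13.3 and 11.2 CPM in Esamlo WT, and 127 and 130.5 CPM in Esamhi CKO, against 139.5 and 147 CPM in Esamhi WT. The log2 fold change in Dec205 was -2.13 (SE 0.17, adjusted p = 5.96e-05), and the cDC2 difference of -0.29 (SE 0.11, adjusted p = 0.281) did not pass. The interaction was -1.84 (SE 0.20, adjusted p = 0.00096). A gate on Esam can set its level within the Esamlo and Esamhi subsets. Notch4, a Notch receptor, had 16.2 and 26.8 CPM in Dec205 CKO, against 125 and 121 CPM in Dec205 WT, and below 10 CPM in every Esam library, with an interaction of -2.05 (SE 0.37, adjusted p = 0.0167). No other of the 22 genes of Notch receptors, ligands and targets was called, where 1.75% of all genes were called lower.

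Gclc, the rate-limiting enzyme of glutathione synthesis, had 87.6 and 99 CPM in Dec205 CKO, against 448 and 416 CPM in Dec205 WT. Esamlo CKO had 34.1 and 35.6 CPM, against 40.5 and 28.8 CPM in Esamlo WT, and Esamhi CKO had 29.7 and 43.7 CPM, against 49.6 and 50.9 CPM in Esamhi WT. Dec205 CKO stayed above every Esam library, and the interaction was -1.99 (SE 0.23, adjusted p = 0.00136). Gsr, glutathione reductase, was the other called member of 18 redox genes (-0.93, SE 0.18, adjusted p = 0.0204), kept in 9 of the 12 fits without 1 library. The log2 fold change of Gsr was -0.37 in Esamlo and 0.61 in Esamhi. Its call was lost against Esamlo alone (adjusted p = 0.364) and with group weights (limma-voom adjusted p = 0.058). Slc2a3, the glucose transporter GLUT3, had 0.0999 and 0 CPM in Dec205 CKO, against 4.59 and 2.03 CPM in Dec205 WT, and 99.4 to 204 CPM in the Esam CKO libraries, against 129.8 to 252 CPM in the Esam WT libraries. On 2 counts in Dec205 CKO and 93 in Dec205 WT, WT was 57.9-fold higher, with an exact 95% interval of 15.6 to 484.9 for counting error only. The Slc2a3 interaction passed with an adjusted p of 0.00306, and its call was lost with group weights (limma-voom adjusted p = 0.3792). Pfkfb3, which drives glycolysis, was the other called member of 17 glycolysis genes (-1.14, SE 0.21, adjusted p = 0.018). All calls in the redox and glycolysis lists were lower, beside 1.75% of all genes.

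Of the Dec205-led lower genes, 18 had 0 counts in Dec205 CKO, and those of them named by size were Hrh1, the histamine H1 receptor, Abcd2, a peroxisomal fatty acid transporter, Bmp8a and Gdf3, ligands of the TGF-beta family, Lifr, the receptor of leukaemia inhibitory factor, and Nfe2, a basic leucine zipper factor. Their Dec205 WT levels were low, from 0.518 CPM for Nfe2 to 3.7 CPM for Hrh1. With CKO at the floor of 3 counts, they were at least 38.9-fold lower in Dec205 CKO for Hrh1, 36.4-fold for Abcd2, 16.9-fold for Bmp8a, 17.2-fold for Lifr, 6.61-fold for Nfe2 and 9.84-fold for Gdf3, whose call was kept in 5 of the 12 fits without 1 library. None of the 6 was called in the cDC2 arm, where each was above 2 CPM in every library. With group weights none of the 6 kept its interaction call. Tns1, a focal adhesion protein, had 0.0999 and 1.39 CPM in Dec205 CKO, against 14.2 and 18.6 CPM in Dec205 WT, and an interaction of -3.43 (SE 0.63, adjusted p = 0.0172). The Tns1 call was lost with group weights (limma-voom adjusted p = 0.3521). Adamtsl4, a matrix protein, had 3.65 and 2.78 CPM in Dec205 CKO, against 11.8 and 13.5 CPM in Dec205 WT, and an interaction of -2.80 (SE 0.42, adjusted p = 0.00604).

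**Figure D4:**
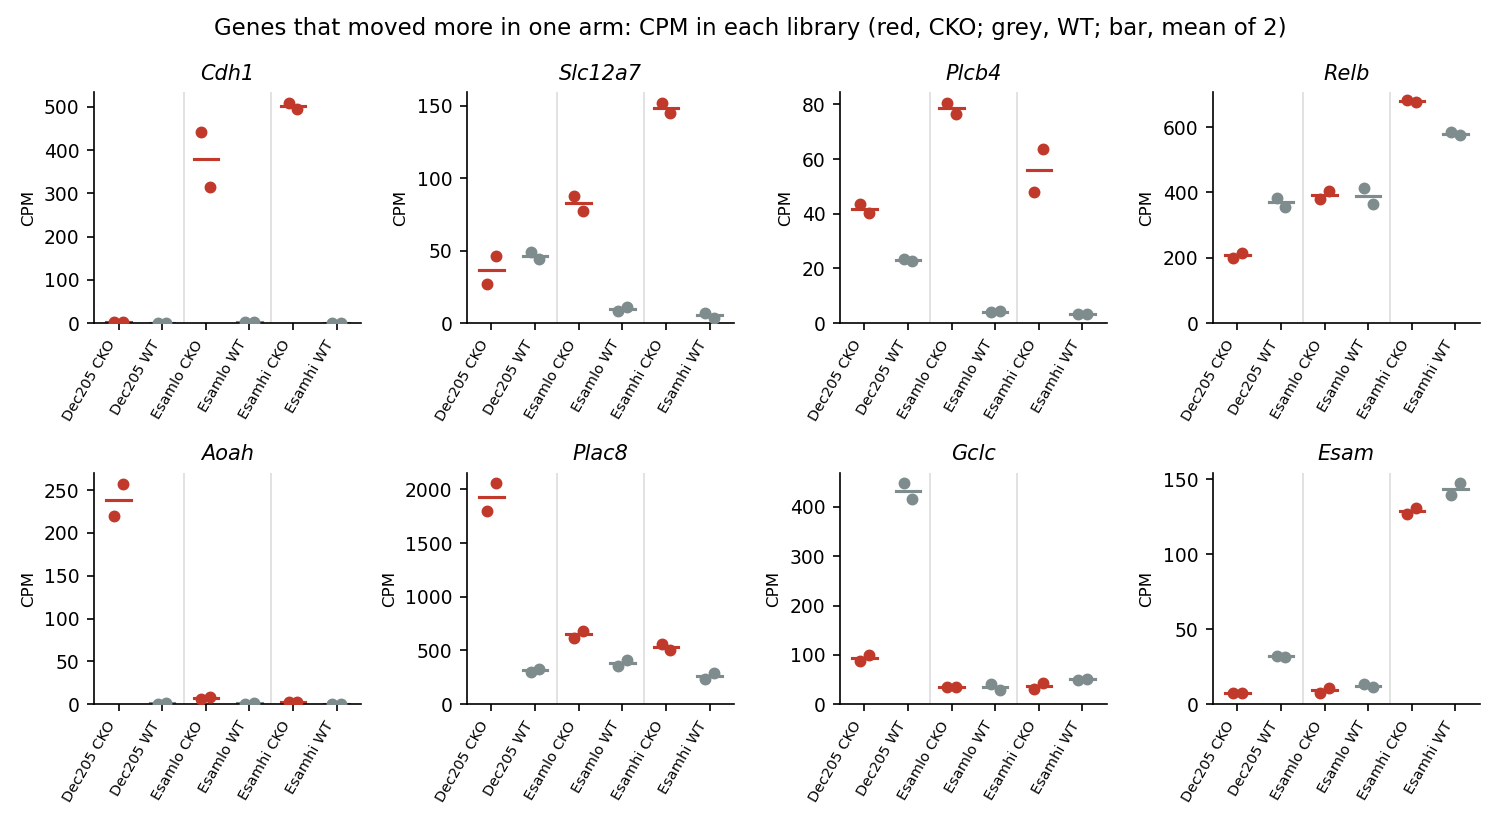
CPM in each of the 12 libraries (points; red for CKO, grey for WT; bars are means of 2) for 8 genes that moved more in 1 arm, on a linear axis from 0. In the top row Cdh1, Slc12a7 and Plcb4 show their widest gaps in the Esam subsets and Relb in Dec205, and in the bottom row Aoah, Plac8, Gclc and Esam show theirs in Dec205.

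Identity and presentation lists differed in their share of interaction calls. It was 0% for cDC1 identity and MHC class II presentation, 8% for cDC2 identity, 12% for pDC identity and 13% for MHC class I presentation. Over all tested autosomal genes it was 2.83%. edgeR's test called 0 of the 25 cDC1 identity genes in the interaction, where 9 had an unadjusted p under 0.05 and DESeq2 called 4, and 0 of the 17 genes of MHC class II presentation, where 3 had an unadjusted p under 0.05 and DESeq2 called 1. Xcr1, the chemokine receptor of cDC1, had 1507 and 1740.0 CPM in Dec205 CKO, against 1244 and 1187 CPM in Dec205 WT, and an interaction of 0.32 (SE 0.29, adjusted p = 0.632). Cd8a, the CD8 alpha chain of lymphoid cDC1, had 67.4 and 68.8 CPM in Dec205 CKO, against 762 and 675 CPM in Dec205 WT. It had 1.65 and 4.01 CPM in Esamlo CKO, against 10 and 8.45 CPM in Esamlo WT, and 0.852 and 1.53 CPM in Esamhi CKO, against 9.78 and 4.04 CPM in Esamhi WT. Cd8a fell in both arms, from far lower levels in cDC2, and the interaction of -1.28 (SE 0.47, adjusted p = 0.194) did not pass. Of 23 genes of MHC class I presentation and cross-presentation, Rac2, a GTPase of the phagocyte oxidase, was called higher (0.69, SE 0.14, adjusted p = 0.0243). Nlrc5 and the peptide transporter subunit Tap1 were called lower. Over all tested autosomal genes 1.07% were called higher and 1.75% lower. The calls of Rac2 and Tap1 were kept in 5 and 2 of the 12 fits without 1 library.

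Interferon-induced GTPases were called in both directions. Ifi47, an immunity-related GTPase that belongs to the antiviral list above, was called higher (1.21, SE 0.20, adjusted p = 0.00989). Of 16 others, listed separately, Gbp9 (-1.55, SE 0.22, adjusted p = 0.00498) and Gbp4 (-1.06, SE 0.18, adjusted p = 0.0111), guanylate binding proteins of cell-autonomous defence, were called lower and 0 were called higher, beside 1.75% and 1.07% of all genes. The Gbp4 call was lost against Esamhi alone (adjusted p = 0.151). Gbp9 had 21.2 and 33.4 CPM in Dec205 CKO, against 83.2 and 92.9 CPM in Dec205 WT, and 95.0 to 119.8 CPM in the Esam CKO libraries, against 95.1 to 139.1 CPM in the Esam WT libraries. The Gbp genes are close copies and may share reads. In the Toll-like receptor pathway Cd180 and its partner Ly86, which form a receptor complex of B cells and DCs, were called higher among 21 genes, with interactions of 1.32 (SE 0.20, adjusted p = 0.00678) and 0.67 (SE 0.10, adjusted p = 0.00676). The Cd180 call was lost against Esamlo alone (adjusted p = 0.0764). Irak2, a signalling kinase, was called lower (-0.88, SE 0.17, adjusted p = 0.0199), kept in 8 of the 12 fits without 1 library. Over all tested autosomal genes 1.07% were called higher and 1.75% lower.

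Further lists held at most 2 calls each, beside 1.07% of all genes called higher and 1.75% lower. Bcl2l14 was called lower among 19 apoptosis regulators (-1.11, SE 0.15, adjusted p = 0.00348), and Il10rb, a subunit of the interleukin 10 receptor, lower among 18 DC growth factor receptors (-0.67, SE 0.11, adjusted p = 0.0114). Itgb7, an integrin subunit, was called higher among 17 genes of cadherins, catenins and hemidesmosomes (0.63, SE 0.12, adjusted p = 0.0164), where Cdh1 was called lower. Lamp1, a lysosomal membrane protein, was called lower among 17 lysosomal genes (-0.73, SE 0.12, adjusted p = 0.0076), where Ctsc was called higher. The Lamp1 call was lost against Esamlo alone (adjusted p = 0.12). Ccna2 and Mcm3, of mitosis and DNA replication, were called higher among 28 cell cycle genes, beside 1.07% of all genes, and all 28 had a positive interaction, with a median of 0.51. The median log2 fold change of the list was 0.16 in Dec205 and -0.38 in cDC2. Its summed level overlapped in Dec205, with 1982 and 1436 CPM in CKO, against 1527 and 1561 CPM in WT. Ccna2 had 95.9 and 63.2 CPM in Dec205 CKO, against 43.5 and 60.4 CPM in Dec205 WT, and 68.9 to 78.7 CPM in the Esam CKO libraries, against 93.4 to 125.7 CPM in the Esam WT libraries. Its call was kept in 2 of the 12 fits without 1 library and lost without scaling factors, with group weights, with all 16 libraries and against Esamlo alone (adjusted p = 0.151). All 25 ribosomal protein genes had a positive interaction as well, with a median of 0.30. Their median log2 fold change was 0.11 in Dec205 and -0.16 in cDC2. edgeR's test called 0 of them, where 9 had an unadjusted p under 0.05 and DESeq2 called 3. It called 0 of 23 genes of oxidative phosphorylation, with 3 at an unadjusted p under 0.05 and 0 called by DESeq2, and 0 of 21 immediate-early and heat shock genes, with 0 at an unadjusted p under 0.05 and 0 called by DESeq2.

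**Figure D5:**
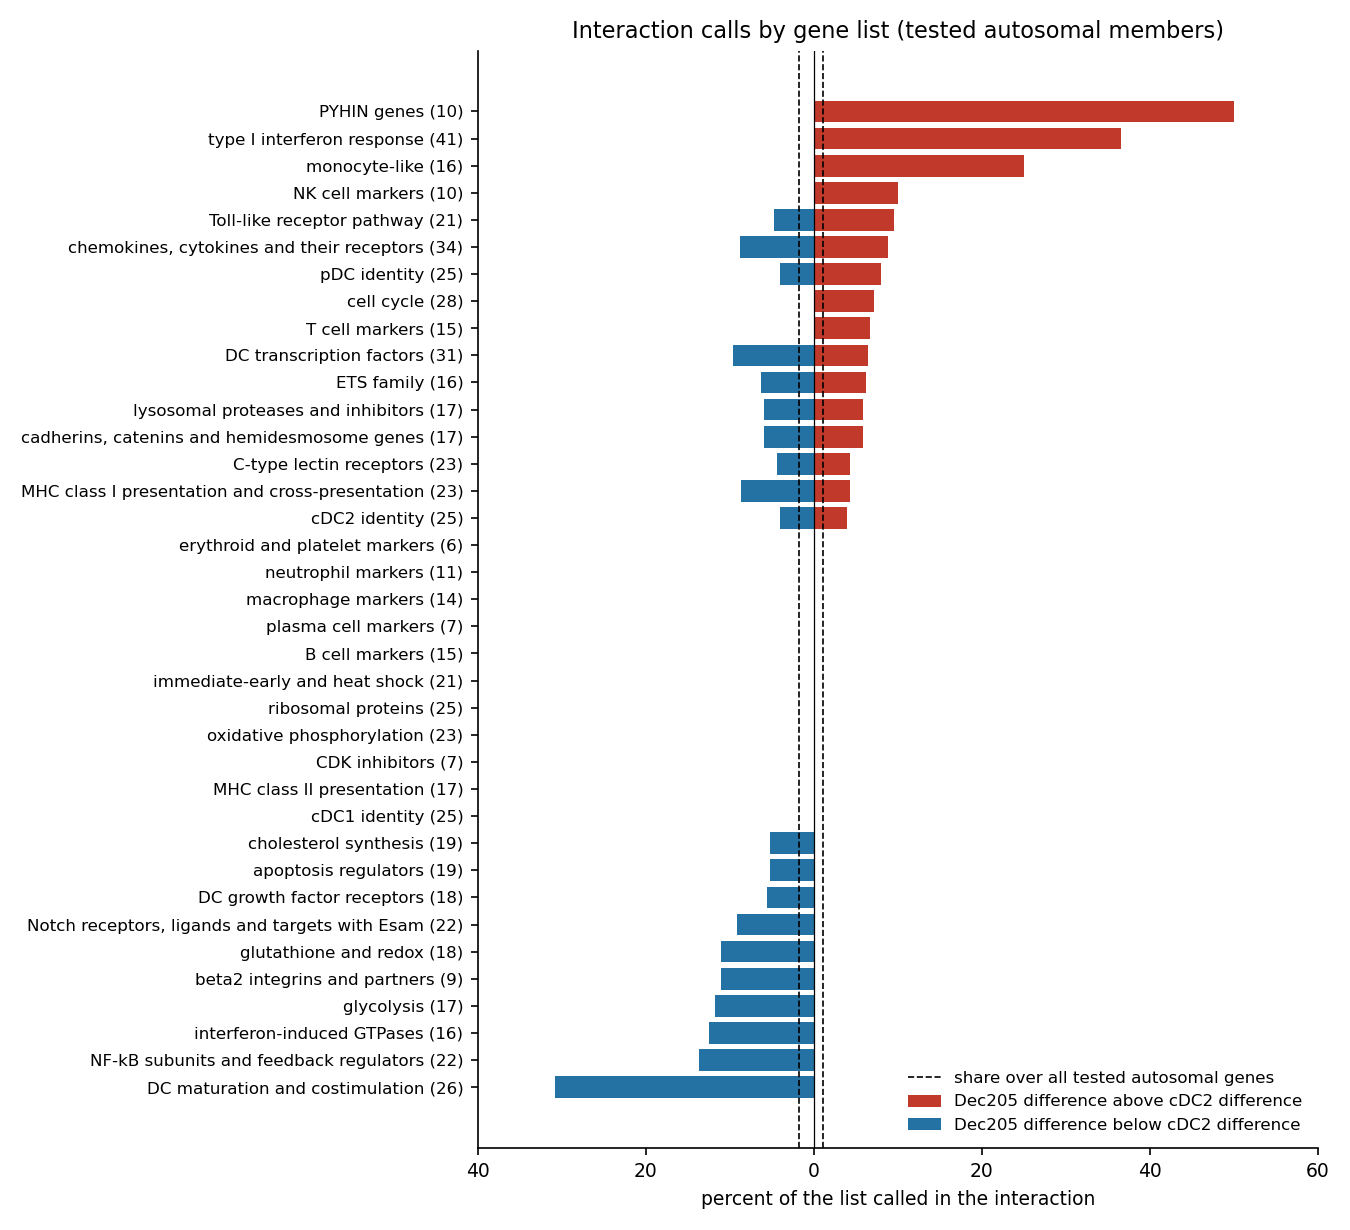
Percent of the tested autosomal members of each of the 37 gene lists called in the interaction, to the right where the Dec205 difference lay above the cDC2 difference and to the left where it lay below, with the number of members in brackets and dashed lines at 1.07% and 1.75%, the shares over all tested autosomal genes. PYHIN, interferon and monocyte-like lists reach furthest to the right and the maturation list furthest to the left.

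Set against each Esam subset alone, fewer genes passed. The Dec205 difference differed from the Esamlo difference in 188 autosomal genes (1.46%) and from the Esamhi difference in 275 (2.14%). Of the 363 called genes, 149 were called against both single subsets in the same direction, and all 363 had the same sign against both. The comparisons share the Dec205 libraries, so this count describes the calls and does not add to them. Within the 363, the CKO and WT libraries of Dec205 did not overlap in 350 and those of both Esam subsets did not overlap, in the same direction, in 148. Over all 12844 tested autosomal genes these held for 42% and 18.1%, and 2.83% were called. Of the 83 genes named by size or as list examples, 53 kept their call against Esamlo alone and 68 against Esamhi alone.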

How the data were processed

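RNA of sorted spleen DCs was converted with the SMART-seq v4 kit, a PCR-based method with no strand information and no molecular identifiers, per the labels' protocols. The authors deposited raw counts per gene for 24116 genes in 1 table, with columns named by sample title. The submitters' processing notes name bcl2fastq, Trimmomatic 0.36, Bowtie2 2.2.9 and mm10, with no counting tool or annotation given. Positions came from RefSeq GRCm38.p6 by Entrez identifier, for 24061 genes.

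From the counts of the 12 libraries, filterByExpr on 6 groups kept 13299 genes (12844 autosomal). Counts were scaled by TMM and tested with edgeR 4.0.16 (R 4.3.3; robust quasi-likelihood F test, two-sided, 1 coefficient per group, no covariate, 6 residual degrees of freedom). P-values were adjusted by Benjamini-Hochberg over all 13299 genes and called under 0.05. The scripts were tested on simulated data, in which all groups shared the same spread for each gene. That test therefore does not cover the wider spread of the Dec205 libraries. DESeq2 1.42.0, limma 3.58.1, other scalings and filters, a replicate block, all 16 libraries, each Esam subset alone and each library left out served as alternatives, and a fit on autosomal genes only was chosen after seeing the data. Floors were 3 counts over a group, and floors and intervals cover counting error only.

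The genes and the 37 gene lists were chosen with earlier results of these data known. Named by rule were called autosomal genes with a group mean of at least 10 CPM: the 10 largest interactions each way among Dec205-led genes, 5 each way among cDC2-led genes, up to 5 called in both arms with opposite sign, and up to 4 called members of each list. Further members and Col17a1, Irf7, Oas1a, Slfn5, Xcr1, Cd8a, Pax5, Cxx1b and Cybb were named after their values were seen. Some genes, among them 1 interferon gene left off its plot, are not reported here.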

Additional observations from a re-analysis of the deposited data

Results flagged for a closer look

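The test of the difference between the CKO effects in Dec205 and in cDC2 called 363 autosomal genes, and the genes named by size are given here with their interaction on the log2 scale. Where a group was at or near 0 counts, the fitted value depends on a small prior count and is neither an estimate nor a bound. Of the Dec205-led genes that were higher, S1pr3 had 9.57, Ccr1 9.29, Hoxc4 9.28, Thbd 9.09, Nxpe5 8.93, Card6 7.22, Cd209b 6.38 and Clec4e 6.27, all with Dec205 WT at 0 to 2 counts, and Rtp4 had 5.78 and Aoah 5.08. Of those that were lower, Hrh1 had -8.72, Abcd2 -8.63, Bmp8a -8.12, Lifr -7.20, Nfe2 -6.75, Gdf3 -6.21 and Slc2a3 -5.35, all with Dec205 CKO at 0 to 2 counts. Sspo had -3.89, Tns1 -3.43 and Adamtsl4 -2.80. Of all these Dec205-led genes, only Sspo and Adamtsl4 kept their call in limma-voom with group weights.

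Among cDC2-led genes Ccl3 had an interaction of 1.74, Sept3 of 1.73, Ccl4 of 1.65, Rgs18 of 0.98 and Stmn1 of 0.67. Cdh1 had -6.98, Slc12a7 -4.29, Flt1 -3.50, Plcb4 -3.27 and Rxra -2.11. Of the genes called in both arms with opposite sign, Cd4 had 2.22, Clec2i -2.13, Mxd1 -1.72, Klri1 1.63 and Gucd1 -1.40.

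Outside the autosomal genes, 12 of 435 tested X-linked genes were called in the interaction, 7 higher and 5 lower. That share is close to the 2.83% of tested autosomal genes called. Cxx1b had 552 and 644 CPM in Dec205 CKO, against 83.2 and 73.9 CPM in Dec205 WT, and an interaction of 2.78 (SE 0.20, adjusted p = 0.000217) in edgeR's quasi-likelihood test. Cybb, a subunit of the phagocyte oxidase, had 147 and 86.5 CPM in Dec205 CKO, against 27.8 and 36.7 CPM in Dec205 WT, and an interaction of 1.66 (SE 0.25, adjusted p = 0.0057). Sex and genotype cannot be told apart for these genes.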

How the results depend on the processing

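With 2 libraries per group, the number of calls depended on how the spread was modelled. The interaction gave 138 higher and 225 lower autosomal genes by edgeR, 371 and 614 by DESeq2, 41 and 89 by limma-voom with group weights (41 and 87 of them also called by edgeR), 54 and 53 when a fold of 1.5 had to be exceeded, and 73 and 115 with Esamlo alone as the cDC2 arm. Leaving out 1 library at a time gave 81 to 472 higher and 114 to 441 lower calls, highest without Dec205 WT replicate 1 (472 and 416) and Dec205 CKO replicate 2 (235 and 441). Without Esamlo CKO replicate 2 they were 83 and 124, without Esamhi CKO replicate 1 90 and 143, without Esamhi CKO replicate 2 81 and 141, and without Esamhi WT replicate 1 84 and 114, and the lower calls were also fewer without Esamlo WT replicate 2 (149) or Esamhi WT replicate 2 (144). The Dec205 arm gave 798 higher and 921 lower by DESeq2, 118 and 130 with group weights, 155 and 97 with the fold of 1.5, and 329 to 858 and 359 to 716 without 1 library. The cDC2 arm gave 462 and 234 by DESeq2, 546 and 380 with group weights, 48 and 7 with the fold of 1.5, 114 lower with no filter, and 98 to 305 higher and 29 to 144 lower without 1 library. Without scaling factors the interaction gave 154 higher and 172 lower (47.2% higher against 38%), and its median over autosomal genes moved from 0.0041 to 0.0704. Etv6 in Dec205 stayed at -0.82 to -0.68 without 1 library, and at -0.74 missed the threshold with the fold of 1.5. With 1 library left out, the lone one of its group is assumed to vary like the others. The cause of these differences was not tested.

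Same-numbered libraries did not deviate together: correlations of deviations ran from -0.21 to 0.18 over 15 pairs of groups. A replicate block gave 142 higher and 221 lower interaction calls. Of the 35 genes named by size, none reversed under any alternative, 26 kept their call in every fit without 1 library, 34 with the replicate block and 15 with group weights. Of the 48 further genes named as list examples, none reversed, 28 kept their call in every fit without 1 library, 46 with the replicate block and 25 with group weights. Of the 10 largest Dec205-led interactions each way, only Sspo and Adamtsl4 kept their call with group weights. With group weights the arms changed order, with 248 calls in Dec205 and 926 in cDC2. A level under 3 counts over a group, 0.075 to 0.104 CPM, cannot be told from 0 at this depth.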
